A study of Mus musculus with 8 samples.

Results

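Of 10 genes that mark intestinal goblet cells, 3 were lower in the duodenum of mice whose epithelium lacked IκBα, and the genes for the abundant secreted products differed from their siblings by −0.09 to 0.25 on the log2 scale. Scin fell to 43.5% of the wild-type level, Gfi1 to 74.2% and Tpsg1 to 76.4%, each in 4 of 4 sibling pairs. Gfi1 and Tpsg1 no longer passed the test when any 1 pair was left out, Scin when pair 1 or pair 2 was, and all 3 when the mean of adipose or of stomach genes was added to the model. Tff3, Agr2, Fcgbp, Zg16 and Spink4, whose products are secreted or help proteins through the secretory pathway, did not pass the test, and neither did the transcription factor genes Spdef and Foxa3. The 10 genes were chosen by symbol, and each was measured by 1 probe set of the 22206 on the array. They comprise 5 genes of secretory products, 3 of transcription factors and 2 of other markers.

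Goblet cells are secretory cells of the intestinal epithelium that make the mucus layer. They arise from progenitors in which the transcription factor ATOH1 sets the secretory fate and NOTCH signalling blocks it, and SPDEF and FOXA3 then promote the goblet program. Their granules hold the mucin MUC2 together with smaller proteins such as trefoil factor 3, and the mucin is folded and glycosylated in the endoplasmic reticulum and Golgi before release.

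The study profiled bulk RNA of 8 mice on the Clariom S mouse array, a 1-colour array. The series' design names the duodenum, and the sample labels give small intestine. The 4 knockout mice (KO) carried floxed alleles of Nfkbia, which encodes the NF-κB inhibitor IκBα, and the Cre recombinase under the Villin promoter, which is active throughout the intestinal epithelium. Cre removes the promoter and the first exons of the gene. Each KO mouse was matched with a wild-type littermate (WT), which gave 4 sibling pairs. The sources used here do not say whether the littermates carried a floxed allele or Cre. The mice were 8 weeks old in pairs 1 and 3, 11 weeks in pair 2 and 9 weeks in pair 4, were untreated and were fed standard pellets. Each group held 2 males and 2 females, and in pairs 3 and 4 the siblings were of opposite sex. The RNA came from frozen, homogenized tissue, so a lower value cannot tell fewer goblet cells from less RNA per cell.

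Values are on the log2 scale as deposited, and array medians lay between 6.77 and 6.81. The mean of a sibling pair hardly varied over the 4 pairs (median SD over probe sets 0.0175, against 0.0897 expected from the differences within pairs), so differences between pairs had largely been removed and the KO minus WT difference within a pair is the quantity reported. Values after ± are the SD of those differences over n = 4 pairs. Tests were limma's with the sibling pair as a block and Benjamini-Hochberg adjustment over all 22206 probe sets, at a threshold of 0.05. Differences in pairs 1 and 2 resembled each other across probe sets (r = 0.682), as did those in pairs 3 and 4 (r = 0.673), and other combinations of pairs less so (0.346 to 0.420). The p-values do not allow for this and may be too small. As a check of the labels, the deleted gene Nfkbia had log2 values of 6.82, 6.65, 7.72 and 6.65 in KO duodenum, against 9.75, 9.91, 9.01 and 9.78 in WT duodenum, in pairs 1 to 4. It was lower in each KO mouse than in any WT mouse, with the smallest difference, −1.29, in pair 3. The place of its probe set relative to the deleted exons was not analysed. The epithelial marker Vil1, whose promoter drives the Cre, averaged 12.3 in KO and 12.7 in WT duodenum (limma adjusted p = 0.0512). Vil1 was lower in each KO sibling (−0.39, −0.42, −0.18 and −0.38 in pairs 1 to 4), and the median difference of 12 epithelial genes was −0.06. The goblet cell markers Muc2 and Clca1 averaged above 13 in both groups, so epithelium and goblet cells were well represented.

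Limma called 3 of the 10 genes lower and 0 higher (4 had an unadjusted p under 0.05, as did 27.5% of all probe sets), against 2.70% of all probe sets called lower and 3.16% called higher. All 10 lay above the background level of 5.65 in each sample, below which 95% of the 1091 probe sets for olfactory receptors averaged. In 5 genes no KO value overlapped with a WT value, which was also true of 33.1% of all probe sets. In 4 of the 5 the KO values were the lower ones (17.2% of all probe sets), and in Spink4 the higher. With 4 pairs an exact sign-flip test cannot give a p below 0.125, so none of the differences can pass by that test alone.

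**Figure D1:**
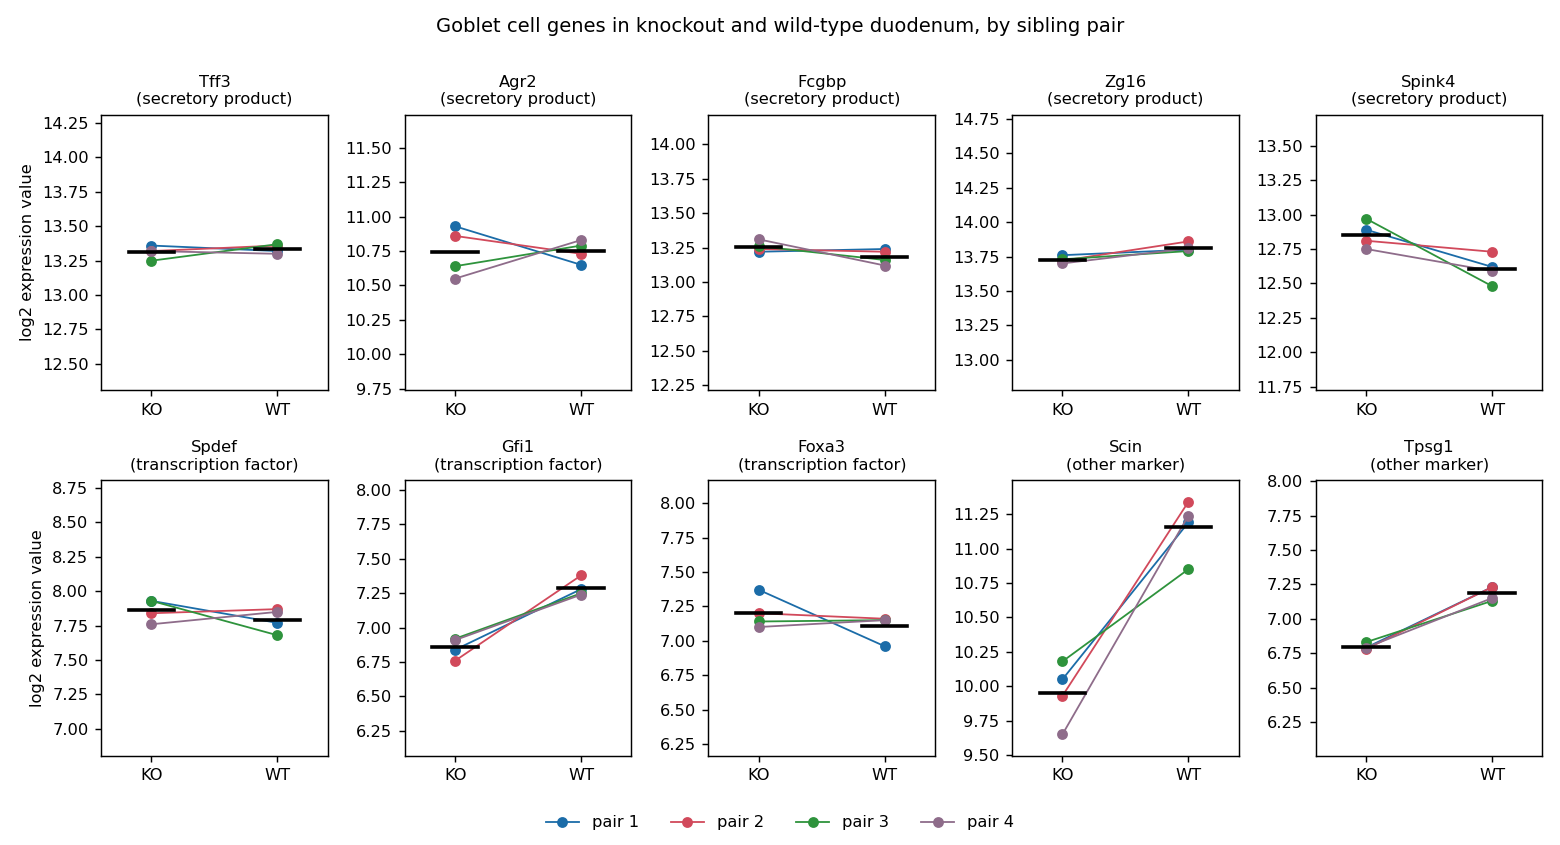
Log2 expression values (y axis, each panel spanning the same range of log2 units) of the 10 goblet cell genes in KO and WT duodenum; points are mice, lines join siblings and black bars are group means. KO and WT points separate by the widest gap for Scin, by narrower gaps for Gfi1 and Tpsg1, and lie close together or cross for Tff3, Agr2, Fcgbp, Spdef and Foxa3.

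Among the secretory products, Tff3 encodes trefoil factor 3, a small peptide that goblet cells release with mucin and that aids repair of the epithelium. Its log2 values were 13.36, 13.32, 13.25 and 13.32 in KO duodenum, against 13.32, 13.36, 13.37 and 13.30 in WT duodenum, in pairs 1 to 4. The groups overlapped, and the difference of −0.03 ± 0.0719 did not pass the test (limma adjusted p = 0.849). On the linear scale KO duodenum held 98.3% of the WT level, with a 95% interval of 87.5 to 110.4%. Agr2 encodes a protein disulfide isomerase of the endoplasmic reticulum that is needed for MUC2 production in mice. It had 10.93, 10.86, 10.64 and 10.55 in KO duodenum, against 10.65, 10.73, 10.79 and 10.83 in WT duodenum. Agr2 was thus higher in the KO sibling in pairs 1 and 2 and lower in pairs 3 and 4, and its mean difference was −0.01 ± 0.256 (adjusted p = 0.983). The interval ran from 83.3 to 119% of WT, the widest on the log2 scale among these 5 genes.

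Agr2 is also made by the surface cells of the stomach, and markers of other organs differed in the same pairs. Of 12 measured genes of Brunner glands and stomach, the list median was −0.52, −0.32, −1.02 and −0.89 in pairs 1 to 4. In that list Gkn1, Gkn2, Gkn3, Tff1 and Tff2 differed by −0.41 to −1.27 in pairs 1 and 2. In pairs 3 and 4 they differed by −3.81 to −5.41. None of them was called (limma adjusted p from 0.0634 to 0.0998). Dmbt1 and Atp4a went the other way on average, by 0.92 and 0.13. The 13 genes of pancreatic acini had medians of −0.28, 0.10, −3.53 and −3.30, and the 8 adipose genes had 3.12, 2.78, 0.27 and 0.01. With the stomach list's mean added to the model, an alternative chosen after the data were seen, the Agr2 difference was 0.27 (adjusted p = 0.271), with the acinar mean it was 0.18 (adjusted p = 0.338) and with the adipose mean −0.23 (adjusted p = 0.217). The sign thus depended on the list, and none of these values passed the test.

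Fcgbp encodes the IgG Fc binding protein, a large mucus component that binds MUC2. Its values were 13.22, 13.24, 13.26 and 13.31 in KO duodenum, against 13.24, 13.22, 13.16 and 13.12 in WT duodenum. The groups overlapped, and the difference was 0.07 ± 0.0929 (adjusted p = 0.560, interval 93.1 to 119% of WT). Zg16 encodes a lectin-like protein of the mucus that binds bacteria, and the pancreas makes it as well. Zg16 had 13.76, 13.72, 13.73 and 13.70 in KO duodenum, against 13.80, 13.86, 13.79 and 13.81 in WT duodenum. Each KO value lay below each WT value, but the difference of −0.09 ± 0.0457 was small and did not pass the test (adjusted p = 0.444, interval 84.1 to 105% of WT). The Zg16 difference was −0.04, −0.14, −0.06 and −0.11 in pairs 1 to 4, and the part of acinar tissue in it was not tested.

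Spink4, a Kazal-type protease inhibitor gene expressed in goblet cells, differed most among the secretory products. It had 12.89, 12.81, 12.97 and 12.75 in KO duodenum, against 12.62, 12.73, 12.48 and 12.59 in WT duodenum. The KO values were above the WT values with no overlap, the largest difference, 0.49, fell in pair 3, and the smallest, 0.08, in pair 2. The mean difference of 0.25 ± 0.178 did not pass the threshold (limma adjusted p = 0.136), although its own interval of 103 to 138% of WT lay above equality. Without the block the adjusted p was 0.0194, but that fit takes siblings' values as independent, which makes its p-values too small. With a random block the adjusted p was 0.294. Centred on housekeeping genes the difference was 0.05 (adjusted p = 0.688).

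Tff3, Fcgbp and Zg16 averaged above 13 on a scale that ended at 14.51. Of the 89 probe sets this bright, limma called 4 (4.49%, against 5.86% of all), and their differences ran from −0.82 to 0.92. Whether bright signals are compressed on these arrays was not tested.

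Among the transcription factors, Gfi1 encodes a zinc-finger repressor that in mice favours goblet and Paneth cells over enteroendocrine cells. Gfi1 had 6.84, 6.76, 6.92 and 6.91 in KO duodenum, against 7.28, 7.38, 7.25 and 7.24 in WT duodenum. All KO values were below all WT values. Gfi1 fell by 0.43 ± 0.137 (limma adjusted p = 0.0355), to 74.2% of the WT level with an interval of 64.9 to 84.8%. Spdef encodes the ETS factor that drives goblet and Paneth cell maturation. Spdef had 7.93, 7.84, 7.93 and 7.76 in KO duodenum, against 7.77, 7.87, 7.68 and 7.85 in WT duodenum. Its groups overlapped, with the KO sibling higher in pairs 1 and 3 and lower in pairs 2 and 4 (difference 0.07 ± 0.159, adjusted p = 0.619, interval 91.3 to 121% of WT). Foxa3, a forkhead factor gene, had 7.37, 7.20, 7.14 and 7.10 in KO duodenum, against 6.96, 7.16, 7.15 and 7.15 in WT duodenum. Only pair 1 showed a difference above 0.05 in size, 0.41, and the mean of 0.10 ± 0.212 did not pass the test (adjusted p = 0.555, interval 91.1 to 126% of WT). Centred on housekeeping genes, Fcgbp, Spdef and Foxa3 lay at −0.13, −0.13 and −0.10, and Tff3, Agr2, Zg16 and Spink4 at −0.22, −0.20, −0.29 and 0.05, of which Zg16 passed (adjusted p = 0.0329). That scaling moved the median of all probe sets to −0.21, against −0.02 in the deposited values.

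Of the remaining markers, Scin encodes scinderin (adseverin), a calcium-dependent protein of the gelsolin family that severs actin filaments and takes part in exocytosis. Scin had 10.05, 9.93, 10.18 and 9.65 in KO duodenum, against 11.19, 11.34, 10.85 and 11.24 in WT duodenum. The groups were far apart: the highest KO value and the lowest WT value, both from pair 3, differed by 0.67. Scin fell by 1.20 ± 0.40 (limma adjusted p = 0.0147), which is 2.30-fold, to 43.5% of WT with an interval of 33.9 to 55.7%. Called falls at least this large were found in 53 probe sets, 0.239% of all. The difference was −1.14, −1.41, −0.67 and −1.59 in pairs 1 to 4, and pair 3, with the smallest Scin difference, also had the smallest Nfkbia difference.

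Tpsg1 encodes tryptase gamma, a membrane-anchored serine protease whose relatives are mast cell enzymes, and in mouse intestine its RNA marks goblet cells. Tpsg1 had 6.79, 6.78, 6.83 and 6.79 in KO duodenum, against 7.23, 7.23, 7.13 and 7.15 in WT duodenum, with no overlap. It fell by 0.39 ± 0.0709 (limma adjusted p = 0.0336), to 76.4% of WT with an interval of 68.0 to 85.9%. Mast cell markers had medians of −0.265, −0.19, −0.44 and −0.445 in pairs 1 to 4. Tpsg1 differed by −0.44, −0.45, −0.30 and −0.36 in the same pairs. Of 12 measured mast cell markers, 4 were called lower (Mcpt1 by −2.47, Kit by −0.78, Mcpt2 by −1.19 and Cpa3 by −1.17) and 0 higher. Over all probe sets 2.70% were called lower and 3.16% higher. Of the 12, 7 were above the background level, 7 kept 1 direction in all pairs (34.4% of all probe sets) and 5 differed by under 0.2 in size. Kit and Tpsb2, the brightest, averaged 7.12 and 6.53 in KO duodenum and 7.89 and 6.90 in WT duodenum. The mean of the 12 ran from 5.24 to 5.48 in KO duodenum and from 5.79 to 6.14 in WT duodenum. The mast cell tryptase genes differed by −0.38 ± 0.185 for Tpsb2 (adjusted p = 0.0614) and 0.15 ± 0.336 for Tpsab1 (adjusted p = 0.505), whose 8 values lay below the background level. The part of mast cells in the fall of Tpsg1 was not tested.

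**Figure D2:**
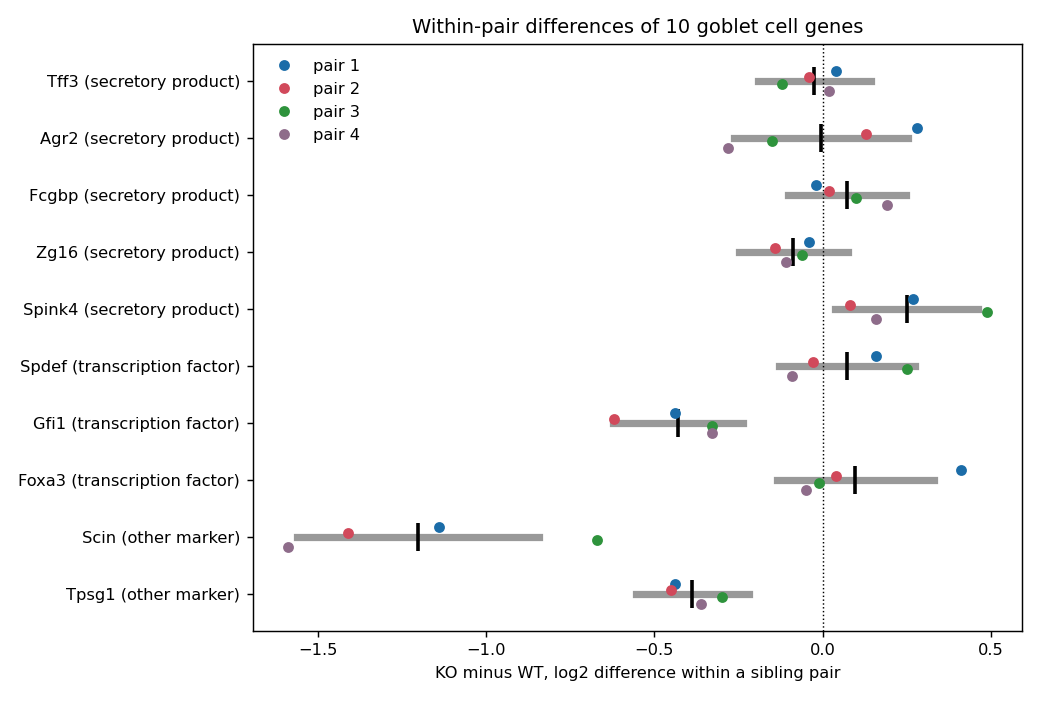
KO minus WT log2 difference (x axis) of the 10 goblet cell genes; points are the 4 sibling pairs, black ticks the mean and grey bars limma's 95% interval. The intervals of Scin, Gfi1 and Tpsg1 lie wholly below 0 and that of Spink4 wholly above it, while those of the other 6 genes span 0.

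The calls on these 3 genes depended on the pairs and on the covariates in the model. In the 14 settings that can move the mean difference, all values stayed below 0, with Scin between −1.40 and −1.07, Gfi1 between −0.63 and −0.33 and Tpsg1 between −0.59 and −0.33. As each gene was lower in 4 of 4 pairs, leaving out or weighting pairs could not turn the sign, so those settings do not test it. Gfi1 lost its call when any 1 pair was left out (limma adjusted p from 0.0758 to 0.125), and so did Tpsg1 (0.0737 to 0.127). Scin kept it without pair 3 (0.00917) or pair 4 (0.0468) and lost it without pair 1 (0.0548) or pair 2 (0.0657). Sex as a covariate left Scin called (0.00989) and Gfi1 and Tpsg1 not called (0.0775 and 0.0726), as did RNA integrity (0.0179, 0.0795 and 0.0765). With the acinar mean Tpsg1 lost its call (0.0540). With the adipose mean none of Scin, Gfi1 and Tpsg1 was called (0.0604, 0.131 and 0.110), nor with the stomach mean (0.0662, 0.0650 and 0.0861).

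Set against each other by role, the 5 secretory products had mean differences of 0.11, 0.01, 0.05 and −0.004 in pairs 1 to 4, an average of 0.04 ± 0.0494. The 3 transcription factors had 0.04, −0.20, −0.03 and −0.16 (average −0.09 ± 0.113), and Scin and Tpsg1 together −0.79, −0.93, −0.49 and −0.98 (average −0.80 ± 0.221). Secretory products exceeded the transcription factors by 0.13 ± 0.0690, in 4 of 4 pairs. That gap rested on Gfi1: against Spdef and Foxa3 alone it was −0.04 ± 0.105. Secretory products exceeded the other markers by 0.84 ± 0.202 (0.90, 0.94, 0.54 and 0.97 in pairs 1 to 4). These averages describe chosen genes and carry no test.

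The 250 bases upstream of the start sites of Scin, Gfi1 and Tpsg1 are shown because these are the genes that fell, and the deleted gene encodes an inhibitor of NF-κB. The sequences are RefSeq's for build GRCm38.p6, for the most upstream start listed of each gene, 5′ to 3′ on the gene's strand. They lie at chr12:40134229-40134478 (minus strand) for Scin, chr5:107725806-107726055 (minus strand) for Gfi1 and chr17:25369023-25369272 (plus strand) for Tpsg1. Capitals mark a match to the κB motif.
Scin: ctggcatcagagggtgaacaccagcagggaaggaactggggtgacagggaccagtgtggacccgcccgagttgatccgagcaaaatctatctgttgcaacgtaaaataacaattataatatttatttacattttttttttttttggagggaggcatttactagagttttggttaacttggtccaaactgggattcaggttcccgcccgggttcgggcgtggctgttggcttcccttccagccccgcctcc
Gfi1: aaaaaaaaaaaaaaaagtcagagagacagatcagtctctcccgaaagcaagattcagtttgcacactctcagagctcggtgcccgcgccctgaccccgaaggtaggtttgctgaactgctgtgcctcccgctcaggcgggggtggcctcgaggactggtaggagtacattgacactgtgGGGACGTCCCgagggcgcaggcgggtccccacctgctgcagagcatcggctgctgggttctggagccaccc
Tpsg1: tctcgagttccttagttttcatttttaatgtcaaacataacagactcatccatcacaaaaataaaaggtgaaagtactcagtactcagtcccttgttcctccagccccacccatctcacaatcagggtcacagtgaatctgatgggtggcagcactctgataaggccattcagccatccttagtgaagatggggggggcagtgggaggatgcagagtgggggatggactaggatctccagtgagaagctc
The κB motif, searched on both strands, matched the Gfi1 sequence once, beginning 71 bases before the start, and matched neither Scin nor Tpsg1. The RefSeq table used here matched 7 of the 10 genes (Agr2, Fcgbp, Spdef, Gfi1, Foxa3, Scin and Tpsg1), and 2 of the 7 held a κB match, Gfi1 and Foxa3. Of 32851 promoters of this length, 7.25% held one. The counts over the 7 are of genes with a match at any start, and Gfi1 and Tpsg1 had 2 starts each. The shares of all promoters count each start singly. The ATOH1 E-box CAGCTG was found in Fcgbp alone of the 7 (13% of all promoters), the GFI1 core AAATCA in Agr2 alone (12.4%) and the forkhead core TGTTTAC in 0 of the 7 (3.17%). No match overlapped another. A match describes letters in this window and not a bound site.

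Beyond the 10 genes, the goblet program was read from 24 other goblet cell genes. Of these 1 was higher, 2 were lower and 21 were not called, and the median difference was 0.0025, against −0.02 over all probe sets. The shares called over all probe sets were 3.16% higher and 2.70% lower. At a threshold of 0.1, 3 of the 24 were higher and 5 lower, against 7.53% and 7.34% of all probe sets. An unadjusted limma p under 0.05 was found for 8 of the 24 (33.3%, against 27.5% of all). The difference was under 0.2 in size for 13 of the 24. Muc2, which encodes the main gel-forming mucin, had 13.57, 13.55, 13.70 and 13.68 in KO duodenum, against 13.67, 13.73, 13.37 and 13.42 in WT duodenum (difference 0.08 ± 0.255, limma adjusted p = 0.681). Muc2 was lower in the KO sibling in pairs 1 and 2 and higher in pairs 3 and 4, the reverse of Agr2. Clca1, a secreted metalloprotease gene of the mucus, differed by −0.03 ± 0.0939 (adjusted p = 0.839). Atoh1, named here after its values were seen, differed by 0.06 ± 0.157 (adjusted p = 0.657).

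Retnlb, which encodes the bactericidal goblet cell protein RELMβ, had 5.55, 5.50, 5.29 and 5.05 in KO duodenum, against 4.31, 4.26, 4.59 and 4.74 in WT duodenum. The KO values were all higher, but all 8 lay below the background level of 5.65. Retnlb rose by 0.87 ± 0.453 (limma adjusted p = 0.0368) at a level where signal and background are hard to separate. Creb3l4, a transcription factor gene of the endoplasmic reticulum stress family, fell by 0.55 ± 0.189 (adjusted p = 0.0272), with 7.02 to 7.26 in KO duodenum and 7.57 to 7.80 in WT duodenum. Ramp1, which encodes a partner of the receptor for the neuropeptide CGRP, fell by 0.48 ± 0.129 (adjusted p = 0.0272), with 8.40 to 8.55 in KO duodenum and 8.88 to 9.03 in WT duodenum. Ramp1 lost its call when any 1 pair was left out, Creb3l4 without pair 1, 2 or 4, and Retnlb without pair 1, 2 or 3. With all pairs kept, Ramp1 lost its call with sex, RNA integrity or any of the 3 tissue means (adjusted p from 0.0502 to 0.115). Creb3l4 lost it with a random block (0.0674) or any tissue mean (0.0690 to 0.116). Retnlb lost it with sex (0.0718), RNA integrity (0.0865) or the adipose mean (0.0841), with which the difference was 0.48.

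**Figure D3:**
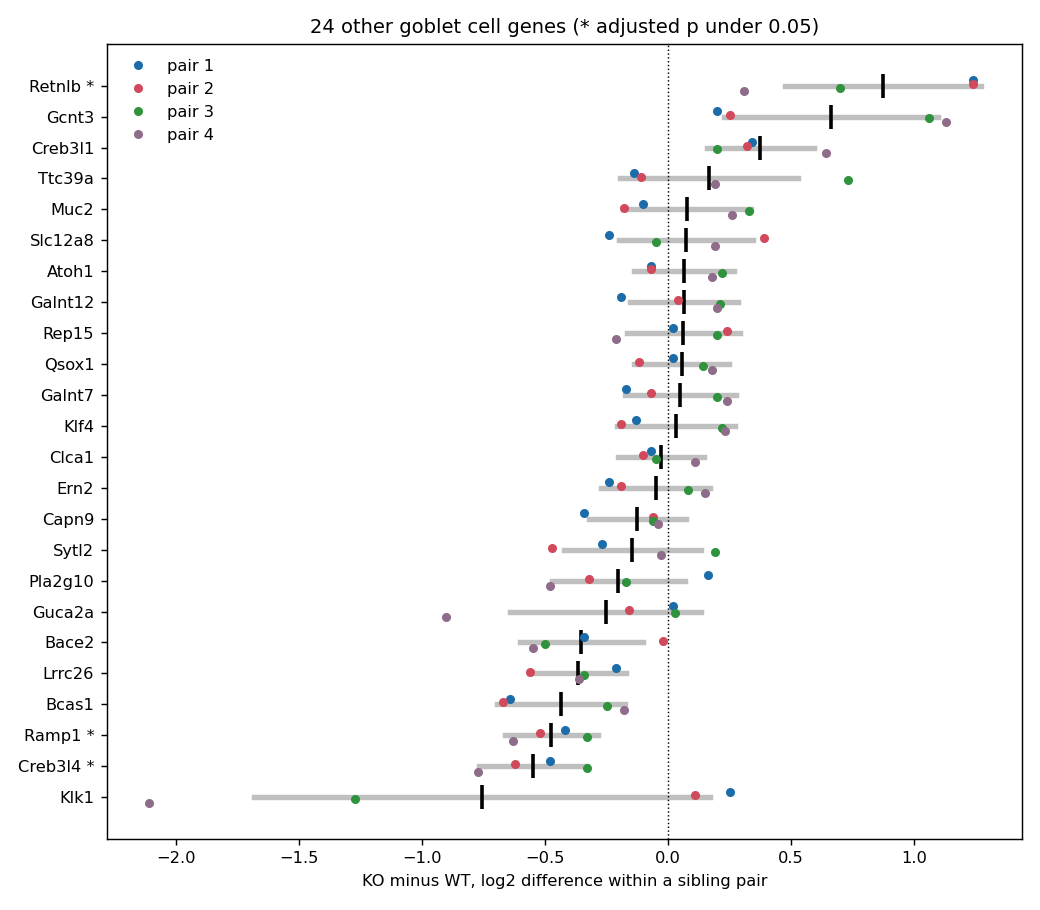
KO minus WT log2 difference (x axis) of 24 further goblet cell genes in order of the mean; points are the 4 sibling pairs, black ticks the mean, grey bars limma's 95% interval, and asterisks mark adjusted p under 0.05. Most means lie near 0, Retnlb is at 0.87, and Ramp1 and Creb3l4 are at −0.48 and −0.55.

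The protein-folding and export genes that goblet cells rely on had 1 of 25 called higher and 0 lower (median 0.06), against 3.16% and 2.70% of all probe sets. An unadjusted limma p under 0.05 was found for 11 of them, all higher in KO duodenum (44%, against 27.5% of all probe sets). The 8 housekeeping genes were also higher in KO duodenum (median 0.20, range 0.05 to 0.37). Centred on them, 0 of the 25 folding genes were called higher and 2 lower. The median of the 25 was then −0.14, against −0.21 over all probe sets. Hyou1, a chaperone gene of the endoplasmic reticulum, had 10.80 to 10.84 in KO duodenum and 10.37 to 10.39 in WT duodenum, and rose by 0.44 ± 0.0222 (limma adjusted p = 0.0223). Its call was lost when any 1 pair was left out, with sex (0.0557), RNA integrity (0.0585) or any of the 3 tissue means (0.0554 to 0.0945), and centred on housekeeping genes, where the difference was 0.24 (0.0559). In 12 of the 25 genes all 4 pairs differed in 1 direction, against 34.4% of all probe sets, and all of these but Agr3 were higher. The genes of secretory fate had 1 of 15 called higher and 0 lower (median 0.04), against the same shares of 3.16% and 2.70%. Elf3, an epithelial ETS factor gene, rose by 0.54 ± 0.111 (adjusted p = 0.0195), with 11.08 to 11.21 in KO duodenum and 10.54 to 10.66 in WT duodenum, and lost its call without pair 1, 2 or 4, with RNA integrity (0.0534) or with any tissue mean (0.0519 to 0.0956). Hes1, the NOTCH target that represses Atoh1, is named after its values were seen and differed by −0.05 ± 0.131 (adjusted p = 0.705).

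Genes of mucin glycosylation varied more widely, with 2 of 20 higher, 1 lower and a median of 0.08. Over all probe sets 3.16% were called higher and 2.70% lower. Of the 20, 11 had an unadjusted limma p under 0.05 (55%, against 27.5% of all probe sets), some higher and some lower. Fut2, which adds terminal fucose to mucin glycans, had 11.34, 11.69, 11.92 and 12.25 in KO duodenum, against 10.03, 9.79, 9.46 and 9.25 in WT duodenum. The groups lay far apart and the rise was 2.17 ± 0.727, or 4.49-fold (limma adjusted p = 0.0129). Its call was lost without pair 2 (0.0505) and with the stomach mean, where the rise was 1.46 (0.0598). B3gnt3, which extends core glycans, rose by 0.72 ± 0.328 (adjusted p = 0.0321). Gcnt1, which builds core 2 branches, had 6.58, 6.64, 6.79 and 6.66 in KO duodenum, against 7.89, 7.84, 7.38 and 7.40 in WT duodenum, and fell by 0.96 ± 0.349 (adjusted p = 0.0196). B3gnt3 lost its call when any 1 pair was left out, and Gcnt1 without pair 1, 2 or 4. With a random block both lost it (B3gnt3 0.0596, Gcnt1 0.0887), B3gnt3 also with sex (0.0586) or any tissue mean (0.0701 to 0.117), and Gcnt1 with RNA integrity (0.0573). St6galnac1, which adds sialic acid to the first mucin sugar and is named after its values were seen, did not behave alike in all pairs. It had 6.40, 6.41, 7.49 and 7.63 in KO duodenum, against 8.94, 9.00, 7.65 and 7.53 in WT duodenum, and its difference of −1.30 ± 1.47 was not called (adjusted p = 0.156). The KO sibling was far lower in pairs 1 and 2 alone, where adipose genes were higher in the KO sibling.

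Markers of the other secretory cells are given beside the falls of Scin, Gfi1 and Tpsg1. Paneth cell genes had 4 of 15 lower and 0 higher (Clps, Nupr1, Habp2 and Ang4), with medians of −0.84, −1.10, 0.07 and −1 in pairs 1 to 4. Shares over all probe sets were 2.70% lower and 3.16% higher. Without pair 1, 2 or 4, 1 of the 15 was called lower, and without pair 3, 11 were. In these fits 0.252 to 1.08% of all probe sets were called lower. With RNA integrity 2 of the 15 were called lower, and with the adipose mean 1. The brightest, Defa17 and Lyz1, averaged 12.5 and 11.8 in KO duodenum and 13.0 and 12.9 in WT duodenum. The list's mean level ran from 9.64 to 10.3 in KO duodenum and from 10.4 to 10.9 in WT duodenum. In pair 3 the called Paneth genes Clps, Nupr1, Habp2 and Ang4 differed by −2.25, −0.38, −0.37 and −0.17, and Scin, Gfi1 and Tpsg1 by −0.67, −0.33 and −0.30. These 4 Paneth genes were picked by their calls. Over all 15 the median in pair 3 was 0.07, and Defa17 and Lyz1 differed by 0.11 and 0.07. Enteroendocrine genes had 4 of 13 lower and 0 higher (Sct, Tph1, Chga and Gip), with medians of −0.40, −0.45, −0.19 and −0.50. With pairs 1 to 4 left out in turn, 1, 0, 3 and 0 of the 13 were called lower, and with the stomach mean 0. The brightest, Sst and Cck, averaged 9.87 and 9.09 in KO duodenum and 9.98 and 9.11 in WT duodenum. The list's mean level ran from 7.82 to 8.01 in KO duodenum and from 8.29 to 8.43 in WT duodenum. The part of these cells in the 3 falls was not tested.

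Limma called 0 of 10 tuft cell genes, 1 of them at an unadjusted p under 0.05 (medians −0.11, 0.04, −0.03 and 0.07), and 0 of 11 leukocyte genes, 4 of them at an unadjusted p under 0.05 (medians 0.22, −0.01, −0.13 and −0.44). Ltc4s and Alox5ap, the brightest tuft cell genes, averaged 7.86 and 7.74 in KO duodenum and 7.94 and 7.78 in WT duodenum. Enterocyte genes had 2 of 13 called lower, Lct and Treh, against 2.70% of all probe sets, with a median of −0.20. Apoa1 and Anpep, of that list, averaged 14.1 and 13.9 in KO duodenum and 14.3 and 14.1 in WT duodenum. Lyz2 and Ptprc, of the leukocyte list, averaged 11.4 and 9.80 in KO duodenum and 11.9 and 9.78 in WT duodenum. Of 6 smooth muscle genes 0 were called, and 0 had an unadjusted p under 0.05 (medians 0.22, 0.02, −0.58 and −0.63). Of the 12 Brunner gland and stomach genes Dmbt1 was called higher and Pgc and Muc5ac lower, against 3.16% and 2.70% of all probe sets. All 8 Pgc values (4.49 to 5.30) lay below the background level of 5.65. Muc5ac had 5.46 to 5.87 in KO duodenum, around that level, with a limma adjusted p of 0.0495. Acta2 and Actg2, of smooth muscle, averaged 12.2 and 11.4 in KO duodenum and 12.4 and 11.6 in WT duodenum. The lists of glands and neighbouring tissues were led by Dmbt1 (13.7 in KO, 12.8 in WT) and Ctse (8.69 in KO, 9.01 in WT) for Brunner glands and stomach, Amy2a4 (9.22 in KO, 9.90 in WT) and Amy2a5 (8.82 in KO, 9.66 in WT) for acini, and Cidec (9.68 in KO, 9.37 in WT) and Fabp4 (9.85 in KO, 7.78 in WT) for fat. Limma called 0 of 13 acinar and 0 of 8 adipose genes, of which 8 and 6 had an unadjusted p under 0.05. These unadjusted counts stand against 27.5% of all probe sets.

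**Figure D4:**
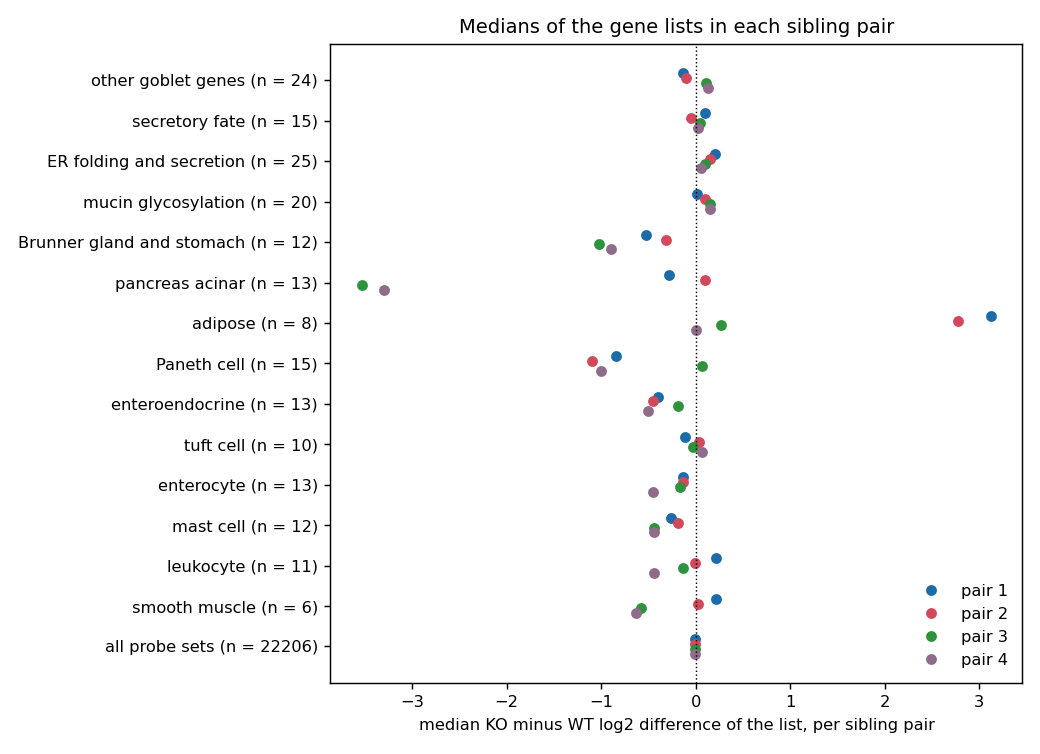
Median KO minus WT log2 difference (x axis) of each gene list in each of the 4 sibling pairs (points), with the number of measured genes beside the list's name. The other goblet genes, secretory fate, folding and glycosylation lists lie within 0.20 of 0 in all pairs, whereas acinar genes reach −3.53 in pair 3 and adipose genes 3.12 in pair 1.

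The genes whose values over the 8 arrays most resembled the mean of the 10 were Uaca, Ccdc68, Snap25, Ube2e3 and Ccdc141, with Pearson's r from 0.984 to 0.991. In all, 423 of 12985 ranked genes had r over 0.9. The 8 arrays hold little more than 4 differences, and the mean of the 10 follows Scin, which varied most, so this likeness is a description of few points.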

How the data were processed

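Total RNA from 8 duodenum samples was hybridized to Clariom S arrays, 1 per mouse. The authors deposited 1 log2 value for each probe set and array. Per the submitters' processing notes they used RMA and Transcriptome Analysis Console 4.0. The step that removed differences between sibling pairs was not given in the sources used here. Probe sets were named through the platform annotation (19572 with 1 symbol, 0 with several, 2634 unnamed here), and all 19572 gene IDs were found in RefSeq's GRCm38.p6 table. A gene with several probe sets (55 genes) was read from the brightest.

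Limma 3.58.1 in R 4.3.3 (lmFit, eBayes) was fitted to all 22206 probe sets with genotype and sibling pair, which left 3 residual degrees of freedom (6.63 after moderation). Per the labels the pair numbers mark littermates. Siblings' deviations from the means of their groups had correlations between −0.913 and −0.870, as the removal of pair means gives. p-values are two-sided, and intervals are limma's 95% intervals, not adjusted for the number of tests. The number of arrays limits precision. The fit was tested on simulated data.

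The 10 genes, the lists, the fit and the settings were chosen with earlier results of these data known. All 10 genes are named, with up to 4 called genes of each pathway list, and for each cell type list its counts, medians and 2 brightest genes. Called genes of cell type lists, Tpsab1, Gkn1, Gkn2, Gkn3, Tff1, Tff2, Atp4a, Atoh1, Hes1 and St6galnac1 were named after their values were seen. The 5 genes most like the 10 were ranked among named genes above background, without predicted models. Alternatives were the block, left-out pairs, covariates, a dim-probe filter, scaling, variance settings and thresholds. RefSeq proteins were not used here.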

Additional observations from a re-analysis of the deposited data

Results flagged for a closer look

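The WT value of Foxa3 in pair 1, 6.96, stood apart from the other 3 WT values (7.15, 7.15 and 7.16), with a gap of 0.95 of the group's range. It was the 1 value that stood apart among 30 groups of 4 values (KO, WT and differences of the 10 genes), and chance alone marks about 1 group in 20. Without pair 1 the Foxa3 difference was −0.0067 (limma adjusted p = 0.975).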

How the results depend on the processing

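The number of all probe sets called was 1301, of which 54.0% were higher. It was 7648 with no replicate block and 2018 with a random block, 145 to 459 without 1 pair, 464 with sex, 364 with RNA integrity, 542 with the stomach mean, 1997 with trend and robust variance, 3304 at a threshold of 0.1 and 97 at 0.01. Pairs 1 and 2 alone gave 0 limma calls (5278 at unadjusted p under 0.05) and pairs 3 and 4 alone 26. Centred on housekeeping genes it was 7495, with 6.22% of the calls higher. Of the 10 goblet genes, 1 was higher with no replicate block (Spink4), and 0 under the other settings. The count of 3 lower became 0 to 1 without 1 pair, 1 with sex or RNA integrity, and 0 with the adipose or the stomach mean, in pairs 1 and 2 alone, in pairs 3 and 4 alone and at the 0.01 threshold. The replicate block was the pairing of littermates, and no block changed no call on the 10 genes but that of Spink4. The fit with no block takes siblings' values as independent, although the removal of pair means made them mirror each other. Its p-values are therefore too small, and its calls carry no weight here. Zg16 was called lower after centring on housekeeping genes (−0.29, adjusted p = 0.0329), which lowers each KO value against its sibling.

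Genes near 0 turned sign. Agr2 ran from −0.10 to 0.087 without 1 pair (0.043 without pair 3) and was 0.205 in pairs 1 and 2, −0.215 in pairs 3 and 4, 0.18 with the acinar mean, −0.23 with the adipose mean, 0.27 with the stomach mean, 0.0019 centred on epithelial genes and 0.0018 with array weights. Foxa3 ran from −0.0067 (without pair 1) to 0.147 without 1 pair and was −0.03 in pairs 3 and 4, −0.047 with the adipose mean and −0.10 centred on housekeeping genes. Tff3 ran from −0.047 to 0.0067 (without pair 3) and was 0.0055 with the stomach mean. Fcgbp was −0.021 with the stomach mean, and Fcgbp and Spdef were −0.13 centred on housekeeping genes. The gap between secretory products and transcription factors ran from 0.10 to 0.15 over the 7 settings that can move it. With 4 pairs and an adjusted threshold over all probe sets, the limits on Tff3, Fcgbp and Zg16 are those of their intervals.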
